A study of Drosophila melanogaster with 2 samples.

Results

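The cytosolic ribosomal protein genes encode the proteins of the ribosome that works outside the organelles. They were taken as all protein-coding genes of the Drosophila melanogaster genome (Release 6, dm6) whose symbol starts with RpL, RpS or RpLP, which gave 92 of the 13945 protein-coding genes on the 6 chromosome arms. By symbol, 54 of these were counted as large-subunit genes (RpL and RpLP) and 38 as small-subunit genes (RpS). Symbols ending in -like were kept, so these counts include RpL24-like, whose yeast counterpart acts in subunit assembly. Mitochondrial ribosomal protein genes carry the prefix mRp and were kept apart.

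Occupancy was that of CLAMP, the product of CG1832 (Clamp), read by ChIP-seq with an antibody against GFP. The flies were a transgenic line that stably makes CLAMP with GFP at its C terminus. Whole embryos aged 0 to 24 h were used, with males and females pooled. There was 1 group of 2 biological replicates, numbered 4 and 2, and no second condition, so no test between conditions was possible. The labels do not say which regulatory sequences drive the fusion or whether untagged CLAMP is also made. Whole embryos mix all cell types, so a site bound in a few cells cannot be told apart from a site bound weakly in many.

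Ribosomal proteins are needed in near-equal amounts, and their genes are transcribed strongly in nearly every cell. In flies many of these genes start transcription within a run of pyrimidines, the TCT initiator, and several depend on the TBP-related factor Trf2 instead of TBP. CLAMP is a zinc-finger protein with an affinity for GA repeats, and it recruits the dosage compensation complex to the male X chromosome.

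A deposited list of optimal peaks, made from both replicates, and an equal number of regions of highest signal from each replicate's own list were used, called the list of replicate 4 and the list of replicate 2 below. Signal is the enrichment value the authors' peak caller gave each region, and it was compared, or ranked from the strongest down, only within a list. A gene counted as occupied when a peak summit lay within 1 kb of one of its transcription start sites (TSSs) or inside the gene. A summit within 250 bp of a gene's own TSS is called an own-start summit. One farther from it and inside the gene's own coding sequence is called a coding-exon summit. One outside the gene, but within 1 kb of a TSS, is called a flanking summit.

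The 3 longest GA repeats beside optimal summits are shown because they carry the sequence CLAMP is known to bind, with the uninterrupted alternation of G and A (or of C and T on the strand shown) in capitals. The run beside RpL7A lay in the 5' UTR of its neighbour dx, 15 bp from the summit, at chrX:6534286-6534315 (dm6, plus strand), and was 13 bp long. The run at RpS19a lay 3 bp from the summit, at chrX:16638113-16638142 (plus strand), and was 16 bp long. The run beside RpS28-like lay 42 bp from the summit, near the start of numb, at chr2L:9437386-9437415 (plus strand), and was 12 bp long.
RpL7A (dx): gagagagcGAGAGAGAGAGAGtgagtgagt
RpS19a: tgcgaggGAGAGAGAGAGAGAGAaagagtg
RpS28-like (numb): gaatctgtgCTCTCTCTCTCTatctatctc

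The starts of 6 genes with an own-start summit are shown next to compare their initiators, as 30 bp on the gene's own strand with the annotated start base at position 16. CTTT beginning within 5 bp of the start is in capitals. RpL14 is at chr3L:8600991-8601020 (plus), RpS21 at chr2L:2856096-2856125 (plus) and RpL23A at chr3L:1668640-1668669 (minus). RpS12 is at chr3L:13023337-13023366 (plus) and RpS27 at chr3R:25247500-25247529 (minus). RpL7 is shown at its first start, chr2L:10200989-10201018, and its second, chr2L:10201085-10201114 (plus).
RpL14: ctgtcaaaaaagttCTTTccttctctttct
RpS21: acgtccagctgtcatttCTTTctctttttc
RpL23A: aactgcccctcagttttcCTTTtcatttct
RpL7, second start: gtatagcacgtttccggtCTTTctttccct
RpL7, first start: agtgtgaccgtttggccgatggcgcgcgtg
RpS12: aactcacatctccagcgccatgccgatttt
RpS27: tgttcagcattatttagtgcattctcgggc
The first 4 of these held CTTT and the last 3 did not. RpS27 held it at another of its annotated starts, and RpS21, shown at the start nearest to its summit, did not hold it at its outermost start.

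Coding-exon summits form the other kind, and 3 with a high GC content are shown on the gene's strand, from 50 bp before to 50 bp after the summit in replicate 4, with G and C in capitals. RpL23A (chr3L:1667969-1668069, minus) held 65 G or C bases, RpLP1 (chr2L:420364-420464, plus) 69 and RpL6 (chr3R:31595225-31595325, minus) 67. The summit upstream of RpS12 in replicate 2 (chr3L:13023178-13023278, plus) held 27. It was the lowest in GC content of the summits assigned to these genes in the optimal list and the lists of replicates 4 and 2. The 4 were picked for their high or low GC content, and the values of all summits are given below.
RpL23A: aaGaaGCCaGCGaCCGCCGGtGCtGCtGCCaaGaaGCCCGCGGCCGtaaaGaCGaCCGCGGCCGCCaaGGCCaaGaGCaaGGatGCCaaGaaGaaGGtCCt
RpLP1: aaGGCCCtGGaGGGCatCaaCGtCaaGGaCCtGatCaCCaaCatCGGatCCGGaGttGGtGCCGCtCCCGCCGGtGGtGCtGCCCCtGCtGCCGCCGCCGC
RpL6: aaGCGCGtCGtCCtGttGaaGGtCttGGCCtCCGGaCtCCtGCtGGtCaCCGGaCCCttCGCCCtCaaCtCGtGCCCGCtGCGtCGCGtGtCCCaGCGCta
RpS12: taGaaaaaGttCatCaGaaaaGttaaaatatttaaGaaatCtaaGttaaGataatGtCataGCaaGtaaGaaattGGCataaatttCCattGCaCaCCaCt

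The share of ribosomal protein genes with a CLAMP peak in the optimal list was near that of all genes. In that list 10 of the 92 genes were occupied (10.9%, exact binomial 95% interval 5.34 to 19.1%), against 13.3% of all protein-coding genes. Of the 10, 7 were large-subunit and 3 small-subunit genes by symbol. In replicate 4 alone 19 of 92 were occupied (20.7%, 12.9 to 30.4%), against 15.1% of all genes, with 14 large-subunit and 5 small-subunit genes. In replicate 2 alone 10 of 92 were occupied (10.9%, 5.34 to 19.1%), against 13.2% of all genes, with 4 large-subunit and 6 small-subunit genes. The share over all genes thus lay within the interval of the ribosomal protein genes in all 3 lists. These intervals cover counting error only. Read depth is unknown from peak lists.

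The replicates named partly different ribosomal protein genes. In all 3 lists 7 genes were occupied, among them RpL7, RpL7A, RpL14, RpS19a, RpS28a and RpS28-like. The 7 made up 36.8% of the genes named by replicate 4 and 70% of those named by replicate 2. The same shares over all protein-coding genes were not counted, so these do not set ribosomal protein genes apart. RpL3, RpL23A and RpLP1 were in the optimal list and in that of replicate 4 only. A further 9 genes were in the list of replicate 4 alone, namely RpL6, RpL13A, RpL24, RpL24-like, RpL34a, RpL34b, RpLP2, RpS4 and RpS24. RpS12, RpS21 and RpS27 were in the list of replicate 2 alone. No summit of any of the 3 lists was assigned to the other 70 genes, a count not made over all genes.

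The replicates differed mainly in coding-exon summits, over all genes as well as in ribosomal protein genes. In replicate 4 coding-exon summits were present in 12 of 92 ribosomal protein genes (13.0%, against 4.75% of all genes), own-start summits in 4 (4.35%, against 4.09%) and flanking summits in 6 (6.52%, against 3.42%). In replicate 2 coding-exon summits were present in 0 of 92 (against 0.201% of all genes), own-start summits in 6 (6.52%, against 5.25%) and flanking summits in 4 (4.35%, against 2.55%). The optimal list had coding-exon summits in 2 (2.17%, against 2.12%), own-start summits in 3 (3.26%, against 4.43%) and flanking summits in 5 (5.43%, against 2.79%). No ribosomal protein gene had a summit in an intron or in an untranslated exon away from its start, a place that held a summit in 6.56% of all genes in the optimal list, 5.75% in replicate 4 and 7.27% in replicate 2. Counted against the starts of all genes, neighbours included, 9 of the 10 optimal summits at ribosomal protein genes lay within 500 bp of a TSS (90%, against 35.0% of all optimal summits). The same held for 13 of 22 summits in replicate 4 (59.1%, against 35.2%) and 10 of 10 in replicate 2 (100%, against 37.3%). The rule itself favours such places, since it takes summits by their distance from a TSS. Ribosomal protein genes are short, with a median length of 1315 bp, against 2166 bp over all genes. Whether their length bears on these shares was not tested.

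**Figure D1:**
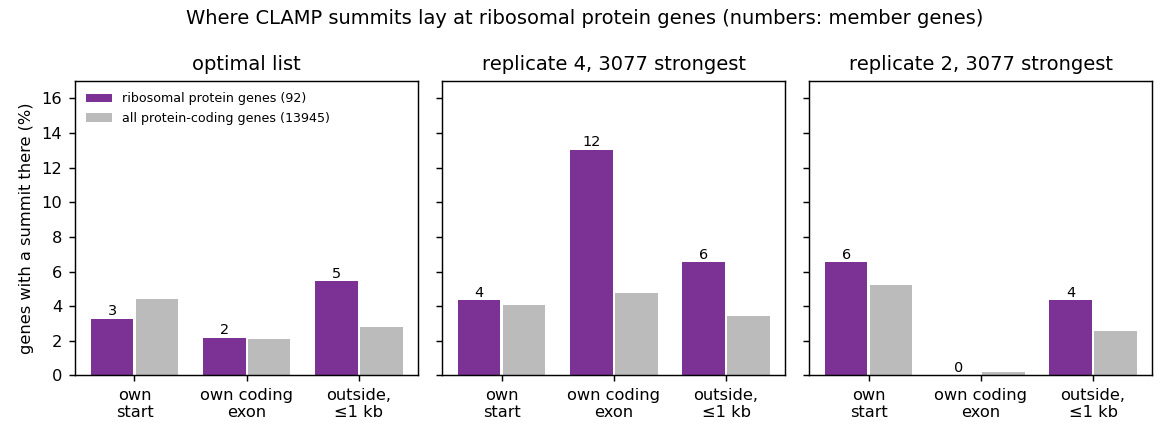
Share of genes (y axis, %) with a CLAMP summit at their own start, in their own coding exon or outside the gene within 1 kb of a TSS, for ribosomal protein genes (purple) and all protein-coding genes (grey), in each list; numbers above the bars count ribosomal protein genes. The tallest bar is the coding-exon share of 13.0% in replicate 4, a class with 0 ribosomal protein genes in replicate 2.

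Of the 10 occupied genes of the optimal list, 5 had a summit outside the gene and nearer to the TSS of a neighbour, and 4 of the 5 are described here. The strongest was assigned to RpL7A (FBgn0014026, chrX:6530897-6533348, minus strand), a large-subunit protein gene. Its summit at chrX:6534279 lay 931 bp upstream of the RpL7A start, in the 5' UTR of dx and 280 bp from a dx TSS. The gene dx (deltex) encodes a regulator of Notch signalling. The signal was 1710 in the optimal list (rank 200), 1143 in replicate 4 (rank 218) and 576 in replicate 2 (rank 141). The summits of both replicates lay within 1 bp of the optimal one. The sequence within 100 bp of it, the window used for GC content throughout, held 49.3% G or C.

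RpS28a (FBgn0039739, chr3R:30022345-30022648, minus strand), a small-subunit gene, had its summit past its 3' end at chr3R:30022010, 638 bp from its own TSS. That base is in the 5' UTR of Mgat2, which encodes an enzyme of N-glycan processing, 211 bp from the Mgat2 TSS. Signals were 615 in the optimal list (rank 716), 444 in replicate 4 (rank 667) and 163 in replicate 2 (rank 946). GC content was 57.2% and the longest GA run 7 bp.

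RpS28-like (FBgn0085211, chr2L:9436804-9437227, plus strand) also had its summit past the 3' end, at chr2L:9437448. It was 644 bp from its own TSS and 21 bp from a TSS of numb, which encodes an inhibitor of Notch that is inherited unequally in asymmetric divisions. Signals were 282 in the optimal list (rank 1496), 208 in replicate 4 (rank 1249) and 78.3 in replicate 2 (rank 1976). Both genes of the RpS28 family that were occupied were therefore occupied at a neighbour's start, while RpS28b had no summit in the 3 lists.

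RpL3 (FBgn0020910, chr3R:11221894-11225173, plus strand), whose product lies near the peptidyl transferase centre, was the weakest of the 10. Its summit at chr3R:11221185 lay 709 bp upstream, in a coding exon of CG6693 and 332 bp from the CG6693 TSS, with 59.2% GC. Signals were 123 in the optimal list (rank 3064) and 102 in replicate 4 (rank 2395). In the whole list of replicate 2, which holds 30000 regions, no summit lay within 200 bp.

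At 3 genes the optimal summit lay at the gene's own start and was found in both replicates. RpL7 (FBgn0005593, chr2L:10201004-10202321, plus strand), a large-subunit gene, had its summit at chr2L:10201014, 10 bp from its first TSS. Signals were 390 in the optimal list (rank 1084), 324 in replicate 4 (rank 873) and 59.7 in replicate 2 (rank 2467). The summit of replicate 4 was 17 bp from the first TSS, while that of replicate 2 lay at chr2L:10201075, 25 bp upstream of the second. The first start, shown above, has no CTTT at its start base and the second has.

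RpL14 (FBgn0017579, chr3L:8601006-8602392, plus strand) had its summit at chr3L:8601019, 13 bp from its TSS. Signals were 305 in the optimal list (rank 1381), 143 in replicate 4 (rank 1681) and 193 in replicate 2 (rank 751). Ranks hold within a list and were not compared between the lists. The optimal summit of RpL14 had a GC content of 42.3% and no GA run of 8 bp or more.

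RpS19a (FBgn0010412, chrX:16637894-16639249, plus strand), whose human counterpart RPS19 is mutated in Diamond-Blackfan anaemia, had its summit at chrX:16638117, 24 bp upstream of a TSS. Signals were 296 in the optimal list (rank 1421), 177 in replicate 4 (rank 1419) and 120 in replicate 2 (rank 1333). It was the only own-start summit of the optimal list with a GA run of 8 bp or more, the 16 bp run printed above. Its paralogue RpS19b had no summit in the 3 lists.

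**Figure D2:**
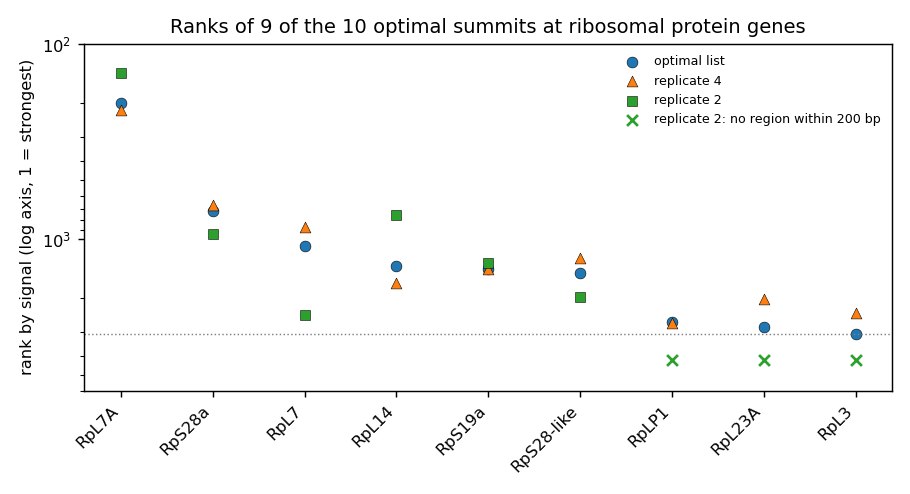
Rank by signal (y axis, log scale, 1 is the strongest) of 9 of the 10 optimal summits at ribosomal protein genes in the optimal list (circles) and of the region within 200 bp of each in replicate 4 (triangles) and replicate 2 (squares). The dotted line marks the length of the lists, and crosses below it mark RpLP1, RpL23A and RpL3, which have no such region in the list of replicate 2; RpL7A ranks between 141 and 218 in all 3 lists.

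The last 2 of the 10 had their optimal summit in their own coding sequence. RpL23A (FBgn0026372, chr3L:1666288-1668654, minus strand), whose product sits by the exit of the nascent peptide tunnel, had it at chr3L:1668020, 634 bp from the TSS. Its signal was 131 in the optimal list (rank 2820) and 115 in replicate 4 (rank 2033), with 67.2% GC. RpLP1 (FBgn0002593, chr2L:419952-420864, plus strand), an acidic protein of the ribosomal stalk, had it at chr2L:420436, 484 bp from the TSS. Its signal was 138 in the optimal list (rank 2682) and 96.1 in replicate 4 (rank 2695), with 65.2% GC. Neither had a region within 200 bp anywhere in the list of replicate 2.

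These belong to a class of 12 coding-exon summits in replicate 4, 1 in each of 12 genes. Besides RpL23A and RpLP1 the genes were RpL6, RpL7, RpL13A, RpL24, RpL24-like, RpL34a, RpL34b, RpLP2, RpS4 and RpS24. RpLP2 encodes the other acidic stalk protein, and RpL24 a protein of a bridge between the subunits. RpL24-like is the fly counterpart of yeast Rlp24, which acts in the assembly of the large subunit. All 12 summits lay in the longest coding exon of their gene, which was 259 to 675 bp long. For RpS24 and RpLP2 this was fixed in advance, since each has only 1 coding exon. The same share over the coding-exon summits of all genes was not counted. The 12 summits lay 59 to 326 bp from an edge of that exon and 252 to 1170 bp from the gene's TSS. RpL6 had it 929 bp and RpL13A 1170 bp from the TSS.

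The coding-exon summits were weak and came from replicate 4. Their signals there were 91.2 to 130, where the lowest signal of the list was 89.9 and the median 158. Their ranks ran from 1801 at RpL24-like to 2978 at RpLP2, so none was in the stronger 50% of the list. All 12 were present in the whole list made from both replicates pooled, at ranks of 2682 to 9930, and 2 of them in the optimal list. None had a region within 200 bp in the whole list of replicate 2. The same shares over all coding-exon summits of replicate 4 were not counted, so these do not set ribosomal protein genes apart. Over all genes, replicate 4 had 503 summits in coding exons over 500 bp from any TSS, against 18 in replicate 2.

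**Figure D3:**
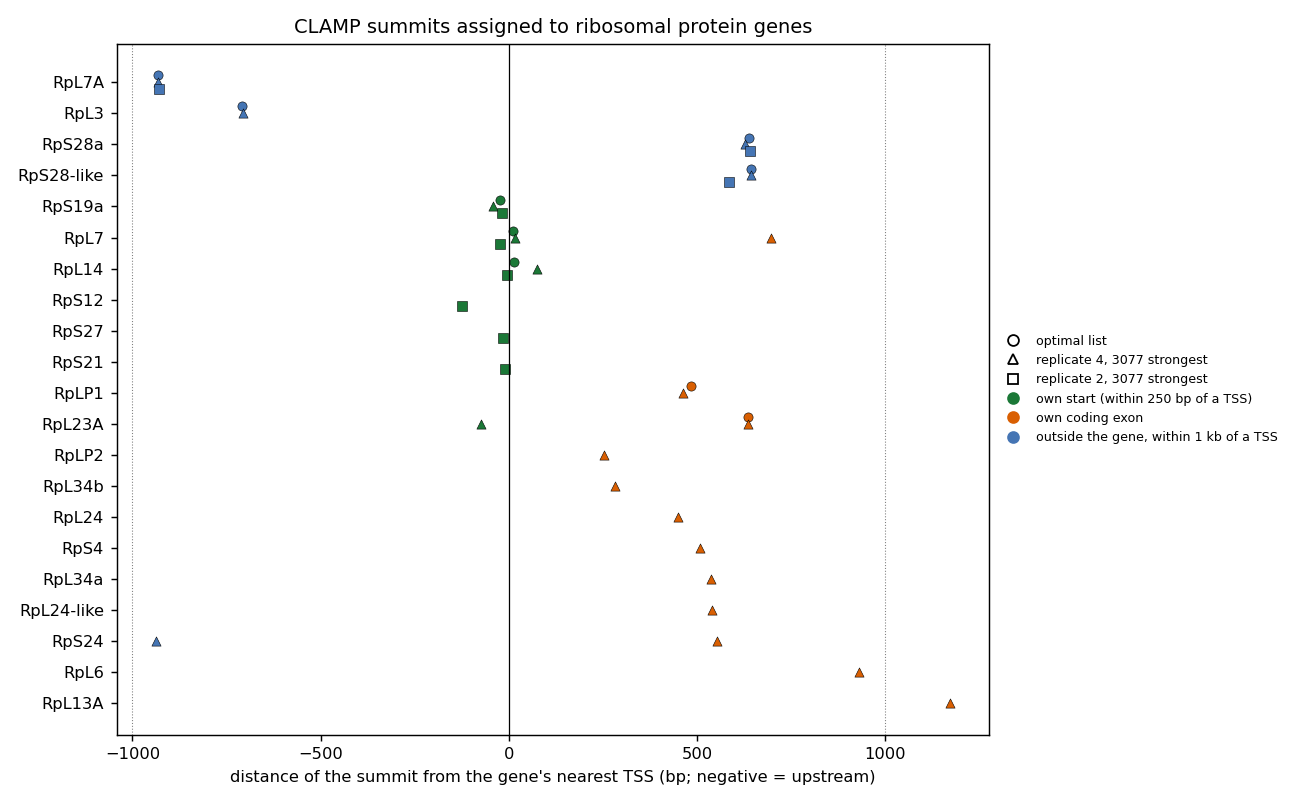
Distance of each summit assigned to a ribosomal protein gene from the gene's nearest TSS (x axis, bp, negative is upstream), for 21 of the 22 genes occupied in any of the 3 lists; circles are the optimal list, triangles replicate 4 and squares replicate 2, coloured by place, and dotted lines mark 1 kb. Orange coding-exon points are circles and triangles only, with no square, while the 3 genes of replicate 2 alone (RpS12, RpS27 and RpS21) lie within 124 bp of the start.

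In replicate 4 GC content was higher at coding-exon summits than at own-start summits. The 12 coding-exon summits of replicate 4 had a median of 65.2% (56.2 to 67.2%), against 60.2% for all 503 summits that replicate 4 had in coding exons over 500 bp from any TSS. Of the 12, 8 met that limit, with a median of 61.7% (56.2 to 67.2%), and the 4 nearer to a TSS had a median of 65.7%. Own-start summits of the same replicate had a median of 50% (46.3 to 53.7%, 4 summits), against 54.2% for all of its promoter summits, those within 500 bp of any TSS. Own-start summits of replicate 2 had a median of 44.8% (31.8 to 50.7%, 6 summits), against 48.5%, and those of the optimal list 46.3% (42.3 to 53.7%, 3 summits), against 51.7%. Within replicate 4 the 12 coding-exon and 4 own-start summits did not overlap in GC content. Overlap was not counted over all summits of that replicate, where the coding-exon median of 60.2% was also above the promoter median of 54.2%.

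Over all summits assigned to ribosomal protein genes the median GC content was 52.7% in the optimal list, against 51.2% for all its summits. It was 58.2% in replicate 4, against 53.7%, and 48.3% in replicate 2, against 47.8%. The replicates differed in GC content over the whole lists as well as here, and replicate 4 had 503 of its summits in coding exons away from promoters (16.3%), against 18 in replicate 2 (0.585%). The part of this difference in the coding-exon summits of ribosomal protein genes was not tested.

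**Figure D4:**
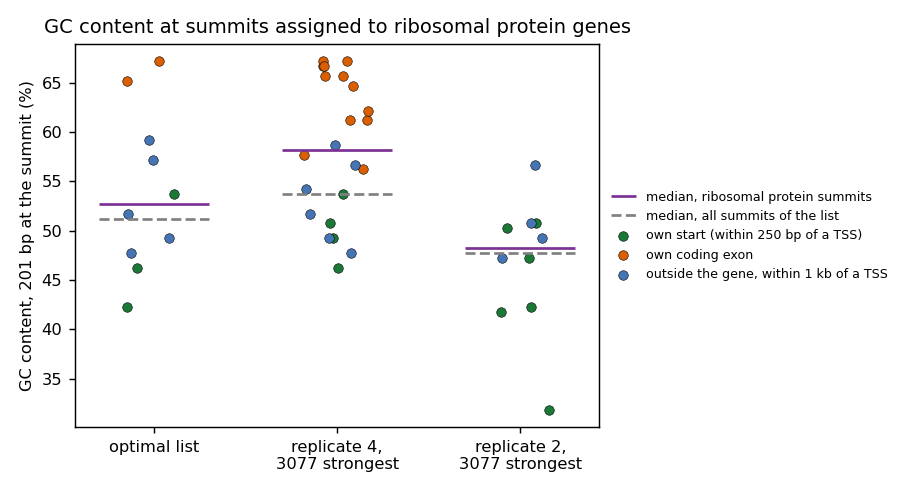
GC content within 100 bp of each summit assigned to a ribosomal protein gene (y axis, %) in each list, coloured by place, with the median of these summits (solid purple) and of all summits of the list (dashed grey). In replicate 4 the coding-exon summits lie at 56.2 to 67.2%, above the own-start summits at 46.3 to 53.7%; the lowest point is RpS12 in replicate 2, at 31.8%.

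The coding sequences themselves were GC-rich. The median coding GC content was 58.7% over the 92 genes, against 53.9% over all protein-coding genes. It was 60.6% (57.7 to 65.1%) in the 12 genes with a coding-exon summit in replicate 4 and 58.4% (40 to 64.6%) in the other 80. The longest coding exon had a median of 403 bp in the 12 and 309 bp in the other 80, against 675 bp over all genes, so the 2 sets overlapped in both measures. RpS10b (64.6%), RpL4 (63.1%), RpL37-1 (63.1%) and RpL8 (63.0%), picked after their values were seen, had the highest coding GC content of the other 80. Their values lay within the range of the 12, and how many more of the 80 did was not counted. RpS10b, RpL4, RpL37-1 and RpL8 had no such summit in the list of replicate 4, where the lowest signal was 89.9. In the whole list of replicate 4, RpL4 had a coding-exon summit with a signal of 88.5, just under that limit. RpL8 had a weaker coding-exon summit there (62.9), and RpS10b and RpL37-1 had none. Whether GC content bears on these summits was not tested. Small nucleolar RNA genes lie inside 28 of the 92 genes, and inside 3 of the 12, a count not made over all genes.

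Replicate 2 alone had own-start summits at 3 small-subunit genes. Genes with an own-start summit in replicate 2 alone were not counted over all genes, so this does not set ribosomal protein genes apart. RpS21 (FBgn0015521) had its summit at chr2L:2856100, 11 bp upstream of a TSS, with a signal of 76.0 (rank 2017) and 50.2% GC. RpS12 (FBgn0286213), whose product is needed for cell competition in fly tissues, had its summit at chr3L:13023228, 124 bp upstream, with a signal of 71.8 (rank 2106). RpS27 (FBgn0039300) had its summit at chr3R:25247531, 17 bp upstream, with a signal of 54.1 (rank 2693) and 42.3% GC. None held a GA run of 8 bp or more. All 3 were below the median signal of that list, 103.

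Replicate 4 had 2 further weak summits beside genes already named. RpL23A had an own-start summit 74 bp upstream of its TSS, with a signal of 92.6 (rank 2890). RpS24 had a flanking summit 936 bp upstream, inside the coding sequence of Ugt317A1, with a signal of 91.8 (rank 2942). RpS24 also had a coding-exon summit, with a signal of 117 (rank 2008), so that RpL7, RpL23A and RpS24 each had summits at 2 places in replicate 4.

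The share of these summits with a GA repeat was near that of the whole lists. An alternation of at least 8 bp was present close to (100 bp or less from) 4 of 10 optimal summits (40%, against 34.4% of all optimal summits), among them those at RpL7A, RpS19a and RpS28-like. The same held for 5 of 22 in replicate 4 (22.7%, against 28.1%) and 4 of 10 in replicate 2 (40%, against 35.6%). Among coding-exon summits of replicate 4 it was 1 of 12, an 8 bp run at RpL34a, against 1.99% of the 503 coding-exon summits over 500 bp from any TSS. Of the 4 optimal summits with a run, 3 lay outside the ribosomal protein gene.

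In the whole replicate lists, which include background regions, regions were assigned to more genes, and the replicates differed here too. Replicate 4 had a region at 62 of the 92 genes (67.4%, 56.8 to 76.8%), against 66.8% of all genes, and replicate 2 at 37 (40.2%, 30.1 to 51.0%), against 58.2%. Coding-exon summits were present in 47 genes in replicate 4 (51.1%, against 53.4% of all genes) and in 5 in replicate 2 (5.43%, against 27.8%). Those 5 included RpL31 and RpL37-2. Own-start summits were present in 8 genes in replicate 4 (8.70%, against 14.5%) and in 21 in replicate 2 (22.8%, against 16.5%). RpL7, RpL14 and RpS19a were the genes with an own-start region in both whole lists. These lists have 30000 regions each whatever the number of true sites, so the counts describe places and not binding.

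Paralogues did not go together in every family. In replicate 4 both RpL24 and RpL24-like, and both RpL34a and RpL34b, had a coding-exon summit, and in the other lists none of the 4 was occupied. RpL7 was occupied in all 3 lists and RpL7-like in none. The other families with more than 1 gene, apart from RpS19 and RpS28 above, had no occupied gene in the 3 lists, among them RpL10A, RpL22, RpL37, RpLP0, RpS10, RpS14 and RpS15A. Reads from near-identical copies can be split or lost in alignment, and the labels do not say how this was handled.

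The promoters of ribosomal protein genes were searched for letters of known motifs in the window from 250 bp before to 50 bp after the outermost TSS. The letters CTTT on the gene's strand, beginning within 5 bp of the start, were present in 31 of 92 (33.7%), against 5.64% of all promoters. With every annotated TSS allowed it was 58 of 92 (63.0%), against 8.07%. The other motifs were searched on both strands. TATCGATA, the DNA replication-related element bound by DREF, was present in 28 (30.4%), against 9.36%, and GGTCACACT, which M1BP binds, in 9 (9.78%), against 6.05%. CAGCTG, an E-box, was present in 9 (9.78%), against 17.7%.

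The CLAMP-type repeat GAGAGAGA was present in 0 of 92 promoters at the outermost TSS, against 3.03% of all promoters, and in 1 (RpS19a; 1.09%, against 4.91%) with every TSS allowed. Of the 7 genes with an own-start summit in any of the 3 lists, 6 had CTTT at any annotated start and 1 had TATCGATA, while of the other 85 genes 52 had CTTT and 27 had TATCGATA. At the outermost TSS alone CTTT was present in 3 of the 7 and in 28 of the other 85. RpS12 was the gene of the 7 without CTTT at any start, and the one with TATCGATA. A match of letters is a description and not a site.

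The 1 kb limit decided 5 of the 10 optimal genes, since at 500 bp 5 remained. Close inside the limit were RpL7A (931 bp) in the optimal list and RpS24 (936 bp) in replicate 4. Close outside were RpL32 (1175 bp, a summit nearest to CG7943) and RpS27 (1254 bp, nearest to Nup358) in the optimal list. The strongest summit near the limit was that of RpLP0-like, 1341 bp away and nearest to 14-3-3zeta, with a signal of 2125 (rank 143), above that of RpL7A.

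Other genes of the translation apparatus were counted by the same rule, for which the share over all genes was 13.3% in the optimal list, 15.1% in replicate 4 and 13.2% in replicate 2. Mitochondrial ribosomal protein genes were occupied in 6 of 73 in the optimal list (8.22%), 7 in replicate 4 (9.59%) and 8 in replicate 2 (11.0%). Translation initiation and elongation factors were occupied in 8 of 35 (22.9%), led by eIF3b with a signal of 2465 and eIF4A with 2306, in 12 in replicate 4 (34.3%) and in 8 in replicate 2 (22.9%). Ribosome biogenesis genes were occupied in 5 of 32 (15.6%), led by Fib (189) and Nop56 (188), in 6 in replicate 4 (18.8%) and in 3 in replicate 2 (9.38%). Subunits of RNA polymerases I and III were occupied in 1 of 16 (6.25%), Polr1D (224), in 2 in replicate 4 (12.5%) and in 1 in replicate 2 (6.25%). Growth signalling genes were occupied in 4 of 14 (28.6%), led by Myc (1157), Akt (833) and Mnt (749), and in 6 in each replicate (42.9%). Of 8 genes for factors known at ribosomal protein promoters, 4 were occupied (50%), led by pzg (2900), Trl (2326), which encodes the GA-binding GAGA factor, and Trf2 (2219), with 3 in replicate 4 (37.5%) and 4 in replicate 2 (50%). These signals were all optimal-list values, and the highest assigned to a ribosomal protein gene was 1710 at RpL7A. That summit lay outside RpL7A, in the 5' UTR of dx, and the highest at an own start was 390 at RpL7. Whether the summits of the comparison genes lay nearer to a neighbour was not counted.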

How the data were processed

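CLAMP-GFP ChIP-seq lists from 2 biological replicates of whole embryos (0 to 24 h, chromatin sheared to 200 to 800 bp per the labels) were used. The authors deposited, in dm6, a list of 30000 regions per replicate, a pooled list and an optimal set of 3077 peaks selected for reproducibility (IDR), per the deposited text files. A replicate's list came from its own alignment and 1 control and includes background regions. Aligner, caller and threshold are not given in sources used here. Column 7, a signal per region, is used as deposited by the authors, only to rank and describe regions within a list. It carries no read total, so the number of sites limits precision. Lists in dm3 were not used, and 0 columns came from other samples.

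Summits were placed (1-based) on the Release 6 genome with the BDGP 6.54 annotation of Ensembl release 115. A summit within 500 bp of any TSS was called promoter, then by the exon part, intron or outside. GC content was taken over 201 bp, and a GA run was an unbroken alternation of G and A of 8 bp or more within 100 bp. Summits matched between lists within 200 bp. Members and lists were chosen with earlier results of these data known. No test was made, because there was 1 group and sites are not replicates. For occupied genes and summit classes, the share over all genes stands beside the count or once before it, except for the overlap of lists. Every gene occupied in the optimal list was to be named with its values (some that the rules select are not reported here, but remain in the counts), other occupied genes by their list, and up to 3 genes per comparison list by highest signal. No promoter table was used, so promoter windows were read from the genome. The laminin receptor homologue sta has another symbol and was not included. Of the comparison genes, eIF5A and Tor had no matching symbol. The placing of summits was tested on simulated data. Python 3.11.15, numpy 2.4.6, pandas 2.3.3 and scipy 1.17.1 were used.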

Additional observations from a re-analysis of the deposited data

How the results depend on the processing

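Of 65 alternative values for 22 results, 48 were unmoved and 17 moved. A count was unmoved when it stayed within 1.5 times the main count. The median GC content was unmoved when it stayed within the standard deviation of the 2 replicates' medians. The medians with a single replicate, 58.2% and 48.3%, set that limit themselves, so counting them as unmoved is no check. The optimal count of 10 occupied genes became 5 with summits within 500 bp or within 250 bp of a TSS, and 10 to 19 with a single replicate in place of both: 19 without replicate 2 and 10 without replicate 4. The 19 genes of replicate 4 became 6 among the stronger 50% of its regions and 62 in its whole list. The 10 genes of replicate 2 became 6 within 500 bp or within 250 bp, 5 among the stronger 50% and 37 in the whole list. Optimal summits placed in a coding exon numbered 3 when promoters reached 250 bp, against 1 with 500 bp, and 0 to 9 with a single replicate. Ribosome biogenesis genes numbered 3 to 6, and RNA polymerase I and III genes 1 to 2, with a single replicate. With every annotated TSS the GA repeat was in 1 promoter and CTTT in 58. The 12 coding-exon genes of replicate 4 became 0 among the stronger 50% of its regions, an alternative chosen after seeing the data. So were the counts of coding-exon genes in replicate 4 and own-start genes in replicate 2 themselves, their other distances, and the count without symbols ending in -like. The cause was not tested, beyond the fewer regions or shorter distances that these alternatives allow. No paired analysis was possible because there was 1 group. Counts of 3 to 12 genes, 2 libraries and an unknown read depth limit what could be seen: a weak site missing from a list is not shown to be unbound.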

Other observations

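The gene sta encodes the small-subunit protein RpSA but carries neither prefix, so it was not among the 92 genes. No summit of the optimal list, or of the strongest regions of either replicate, was assigned to it, and 1 region of the whole list of replicate 4 was.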
